A study of Mus musculus with 12 samples.

Results

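The potassium and calcium channel subunits of the mouse striatum were described in 99 genes, 75 with a Kcn symbol and 24 with a Cacn symbol. They were taken by symbol from a count table of 53465 genes: 115 symbols matched the naming pattern of the pore-forming and auxiliary subunits, and 99 of these had at least 10 reads in at least 3 of the 12 libraries. The other 16 (Cacna1f, Cacng6, Kcna10, Kcna7, Kcne1, Kcne3, Kcnj1, Kcnj15, Kcnk15, Kcnk16, Kcnk18, Kcnk7, Kcnmb3, Kcnn4, Kcnq1 and Kcnv2) fell short of that minimum and were not described. Kcnc2, Kcnj10 and Kcnj13 match the pattern and were left out by the rule. The choice used symbols and a minimum of reads, and no difference between genotypes.

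Total RNA depleted of ribosomal RNA was sequenced from samples labelled as striatal cells of mice on a C57/BL6 background, with 3 libraries for each of 4 genotypes. WT was wild type. Q175HD was the Q175 neo-deleted knock-in strain B6J.129S1-Htttm1.1Mfc/190ChdiJ, in which the endogenous huntingtin gene Htt carries an expanded CAG repeat. SUMO-KO was a SUMO-1 knockout, which lacks a small ubiquitin-like modifier, and Q175HD_SUMO-KO was that knockout in the knock-in. The labels name no Cre line or cell-type-specific promoter for either change, and they give no age. The comparisons ask what the knock-in does to the transcriptome with and without SUMO-1, and what the loss of SUMO-1 does with and without the knock-in.

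Voltage-gated potassium channels repolarise neurons and set their firing rate and pattern. Inward rectifiers and two-pore-domain channels hold the resting potential, and the strong inward rectification and slow A-type currents of striatal projection neurons are known to keep these cells near their resting state until input is strong. Voltage-gated calcium channels couple depolarisation to transmitter release, to calcium-activated potassium currents and to gene expression. Each calcium channel has a pore-forming alpha1 subunit. In many of these channels, though not in all, beta and alpha2delta subunits set its traffic and gating. Most gamma subunits of the brain serve as auxiliary subunits of AMPA receptors.

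The transcripts with the highest levels per length, in the deposited TPM (read counts scaled for transcript length and library size), were those of inward rectifier and A-type current channels. In WT, Kcnj4, which encodes the strong inward rectifier Kir2.3, was at 258 ± 24.8 TPM (SD, n = 3) and Kcnip2, whose product KChIP2 binds Kv4 channels and raises their surface expression, was at 232 ± 16.6 TPM. These levels did not differ beyond their spread. Next in the mean over all 12 libraries came the Kv4.2 gene Kcnd2 at 154 ± 15.2 TPM in WT, and the Kv beta subunit genes Kcnab2 at 152 ± 7.38 and Kcnab1 at 153 ± 16.9. The spreads of these overlapped as well. Among calcium channel genes the highest were Cacnb4 at 126 ± 3.29 TPM, Cacnb3 at 118 ± 7.05 and Cacna2d3 at 110.0 ± 16.2, and the alpha1 subunit with the highest mean over the 12 libraries was the R-type gene Cacna1e at 83.6 ± 3.24. Of the 99 genes, 27 had a mean of at least 50 TPM, 69 at least 10 TPM and 21 less than 5 TPM.

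**Figure D1:**
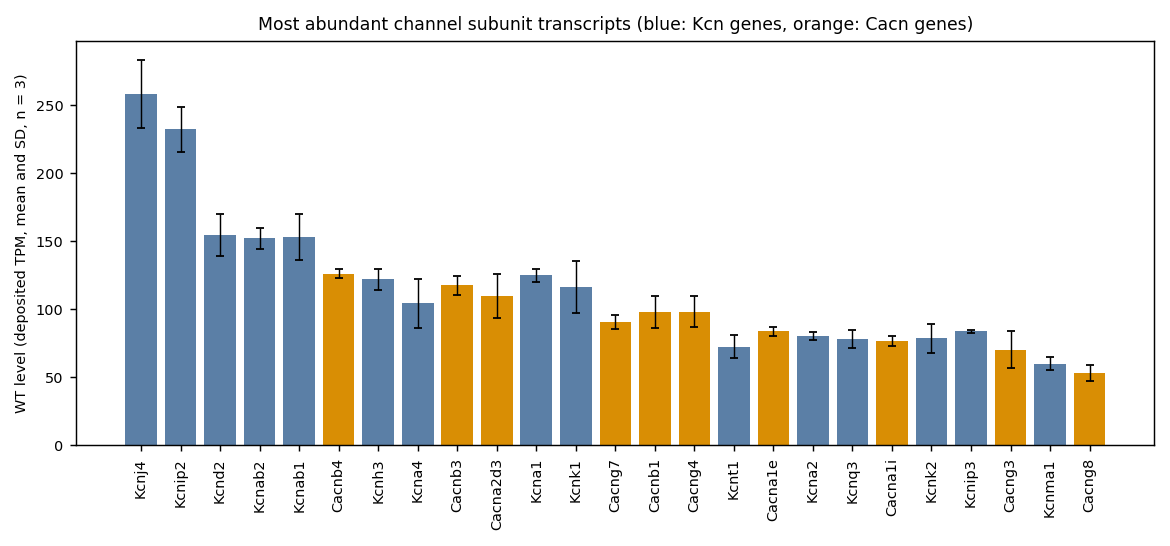
Level in WT of 25 of the 27 subunit genes with a mean of at least 50 TPM over the 12 libraries, in deposited TPM (vertical axis, bars: mean; error bars: SD, n = 3 libraries), ordered by the mean over the 12 libraries. Kcnj4 and Kcnip2 stand at the left with 258 and 232 TPM, above every other subunit gene.

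Reads assigned to genes summed to between 9379594 and 17226419 per library, and 98 of the 99 subunit genes had enough reads to be tested (all but the L-type gene Cacna1s), of which 81 had a mean of at least 50 reads. Levels between libraries are given below in CPM (read counts scaled to a common library size). Libraries differed in 3 respects. Xist reads marked WT 2, SUMO-KO 2 and Q175HD_SUMO-KO 2 as female and all 3 Q175HD libraries as male. The summed level of 13 markers of cortical excitatory neurons was 1104 CPM in WT 1, 755 in WT 2 and 458 in WT 3, against 260.3 to 346 in Q175HD, 304 to 339.7 in SUMO-KO and 267 to 415 in Q175HD_SUMO-KO. The summed level of 7 choroid plexus markers ran from 60.2 to 5028 CPM, and each genotype had both high and low libraries. The 17 markers of striatal projection neurons were all detected, and their summed level was 10804 to 12676 CPM in WT, 11077 to 13254 in SUMO-KO, 6522 to 7067 in Q175HD and 4591 to 6753 in Q175HD_SUMO-KO. In total RNA from tissue, fewer cells of a type and less RNA per cell cannot be told apart. The labels do not tell whether replicates were separate animals. By Xist, replicate 2 came from another animal than replicates 1 and 3 in every genotype except Q175HD, and for the other libraries of a genotype the spread behind the tests may be technical.

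Channel subunit transcripts were lower in the knock-in, and none passed as higher in the fit of all 12 libraries by edgeR. In Q175HD against WT 14 of 98 fell and 0 rose at an edgeR adjusted p under 0.05, or 14.3% of them, where 3.93% of the 17796 genes tested were called in all (2.82% lower and 1.11% higher). In Q175HD_SUMO-KO against SUMO-KO, which shares no library with the first comparison, 23 of 98 fell and 0 rose (23.5%), against 7.81% of all genes (4.61% lower and 3.19% higher). With the knock-in effect averaged over SUMO-1 status, 43 of 98 fell and 0 rose (43.9%), against 16.9% of all genes (8.83% lower and 8.04% higher). The median log2 fold change of the 98 genes was -0.33, -0.31 and -0.32 in these comparisons, and the medians of all genes were 0.0033, 0.0047 and -0.00036. The 3 Q175HD libraries lay below the 3 WT libraries without overlap for 48 of 98 genes (14.3% of all genes did so) and above them for 0 (13.6% of all genes). For Q175HD_SUMO-KO against SUMO-KO the numbers were 35 below (11% of all genes) and 4 above (13.8%), the latter being Cacna2d1, Cacnb3, Kcnmb4 and Kcnu1. In both comparisons 25 of the channel genes lay below without overlap. The share of all genes that did so in both was not counted, so the 25 cannot be set beside it. Under other settings single genes passed as higher with the knock-in. Kcng1 did so in the averaged effect with sex or the replicate number in the fit and without Q175HD_SUMO-KO 2, Cacng7 without SUMO-KO 3, and Cacna2d1 by DESeq2. In Q175HD_SUMO-KO against SUMO-KO Kcng1 passed as higher with sex in the fit and without Q175HD_SUMO-KO 2, and Cacng7 and Kcnmb4 without SUMO-KO 3.

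There were 10 genes that fell in both knock-in comparisons, of which 9 are described: Kcnh4, Kcnip2, Cacnb2, Cacna1e, Kcna1, Kcnip3, Kcnq5, Kcnc1 and Kcnma1. The 10 made up 71.4% of the 14 and 43.5% of the 23, while for all genes the calls shared in the same direction made up 64.5% and 32.5%. The 10 come from 8 of the 21 subfamilies and cover A-type, delayed rectifier, M-type and calcium-activated potassium currents as well as R-type calcium channels.

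Kcnip2 (ENSMUSG00000025221, chromosome 19, 45791839 to 45816061, GRCm38), the KChIP2 gene, measured 244, 242 and 278 CPM in WT, 134, 131 and 158 in Q175HD, 249, 253 and 293 in SUMO-KO and 143, 127 and 135 in Q175HD_SUMO-KO. Every knock-in library was below every library without the knock-in, and the 2 knock-in groups overlapped. The log2 fold change was -0.85 (SE 0.10, edgeR adjusted p = 0.000588) with SUMO-1 and -0.97 (SE 0.10, edgeR adjusted p = 0.000138) without it.

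Kcnh4 (ENSMUSG00000035355, chromosome 11, 100740376 to 100759942), which encodes Kv12.3, a voltage-gated subunit of the ELK branch, was at 34.7, 42.7 and 36.9 CPM in WT, 22.7, 25.5 and 24.3 in Q175HD, 57.2, 46.9 and 39.7 in SUMO-KO and 21.3, 18.9 and 20.3 in Q175HD_SUMO-KO. The knock-in libraries again lay below all others, and those without SUMO-1 lay below those with it. The fold changes were -0.66 (SE 0.13, edgeR adjusted p = 0.0129) and -1.24 (SE 0.13, edgeR adjusted p = 0.000138) on the log2 scale, and their difference did not pass (interaction -0.59, SE 0.18, edgeR adjusted p = 0.926).

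Cacnb2 (ENSMUSG00000057914, chromosome 2, 14603088 to 14987908), a beta subunit that brings alpha1 subunits to the membrane, was at 122, 134 and 134 CPM in WT and 80.5, 75.6 and 86.5 in Q175HD, and at 155, 158 and 149.7 in SUMO-KO and 81.9, 82.6 and 71.2 in Q175HD_SUMO-KO. It fell by 0.68 (SE 0.085, edgeR adjusted p = 0.000763) and by 0.97 (SE 0.086, edgeR adjusted p = 2.63e-05) on the log2 scale. The 3 SUMO-KO libraries lay above the WT libraries, a difference of 0.25 (SE 0.085, edgeR adjusted p = 0.263) that did not pass.

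Cacna1e (ENSMUSG00000004110, chromosome 1, 154390731 to 154884501), the pore of R-type calcium channels, was at 683, 671 and 641 CPM in WT, 424, 439.8 and 412 in Q175HD, 892, 696 and 637 in SUMO-KO and 436, 530.2 and 356 in Q175HD_SUMO-KO. The spread was narrow in the groups with SUMO-1 and wider in those without, with no overlap between knock-in and control in either pair. The log2 fold changes were -0.65 (SE 0.14, edgeR adjusted p = 0.0258) and -0.75 (SE 0.14, edgeR adjusted p = 0.00699).

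Of the remaining genes called in both, Kcnip3, which encodes KChIP3 (also known as DREAM and calsenilin), was at 95.4, 91.6 and 93.7 CPM in WT, 51.3, 56.8 and 67 in Q175HD, 72.1, 69.7 and 78 in SUMO-KO and 55, 53.1 and 54.7 in Q175HD_SUMO-KO. Here the SUMO-KO libraries lay between WT and the knock-in groups. Kcna1, the gene of the axonal delayed rectifier Kv1.1, was at 198, 181 and 186 CPM in WT, 131, 143 and 124 in Q175HD, 161, 168 and 203 in SUMO-KO and 109, 113 and 112 in Q175HD_SUMO-KO. The Kv3.1 gene Kcnc1, which supports fast spiking, was at 168, 153 and 156 CPM in WT, 118, 128 and 105 in Q175HD, 128, 116 and 151 in SUMO-KO and 87.9, 93.6 and 93.8 in Q175HD_SUMO-KO. The SUMO-KO libraries of Kcnc1 lay below WT without overlap. The large-conductance calcium-activated channel gene Kcnma1 was at 320.4 ± 24.5 CPM in WT and 235 ± 13.2 in Q175HD, and at 299 ± 13.6 in SUMO-KO and 229 ± 21.4 in Q175HD_SUMO-KO (SD, n = 3 each). Kcnq5, whose Kv7 channels carry the M current that muscarinic receptors suppress, went from 136 ± 18.1 to 101 ± 4.5 CPM with SUMO-1 and from 152 ± 18.2 to 96.8 ± 6.39 CPM without it. In these 5 genes the knock-in libraries lay below their controls without overlap, and the log2 fold changes ran from -0.68 to -0.43 with SUMO-1 and from -0.67 to -0.38 without it.

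**Figure D2:**
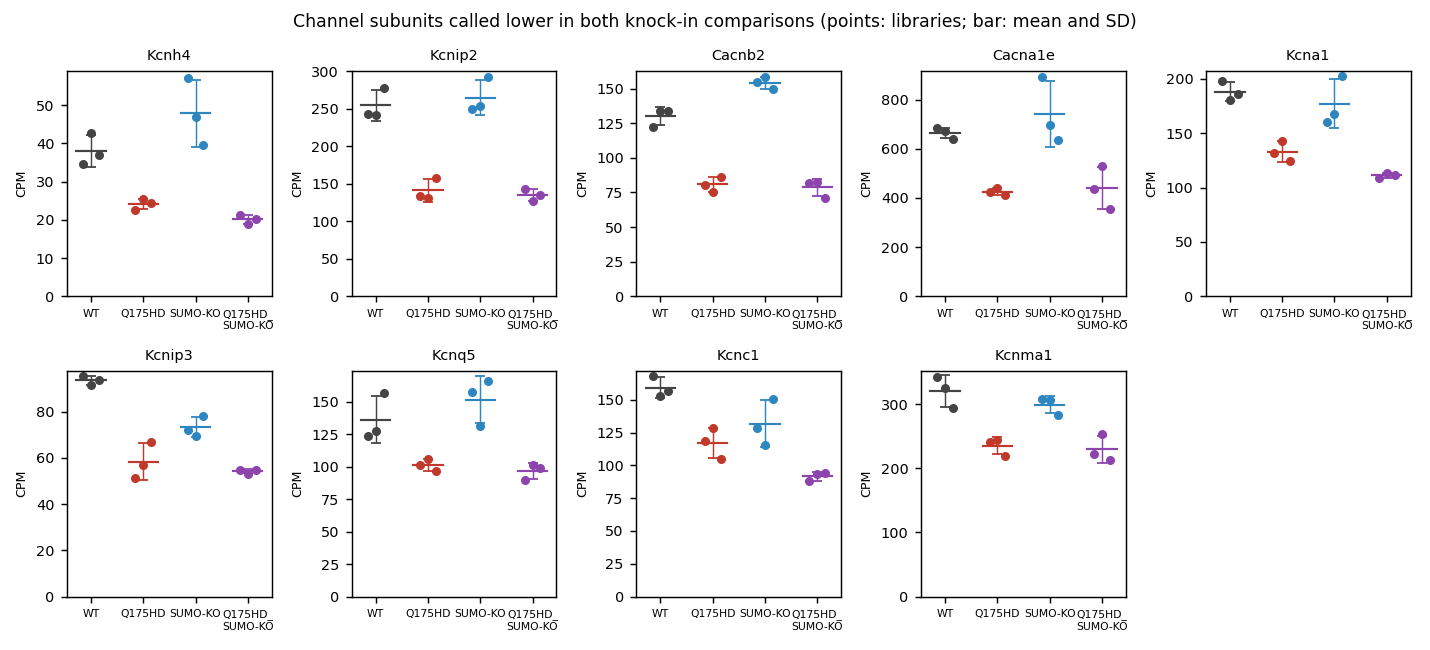
Level in CPM (vertical axes, from 0) of 9 of the 10 subunit genes called lower in both knock-in comparisons, by genotype (points: 3 libraries each; horizontal line and bar: mean and SD). In every panel the Q175HD libraries lie below the WT libraries and the Q175HD_SUMO-KO libraries below the SUMO-KO libraries.

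Windows at the annotated starts of 3 of these genes are shown because the genes moved together while the windows differ in base composition. Each window runs from 250 bases before to 50 bases after the start of the gene (RefSeq, GRCm38.p6), written 5′ to 3′ on the strand of the gene, with the GC box GGGCGG, a binding motif of Sp1-type factors, in capitals. 
Kcnip2 (chr19:45816014-45816313, minus strand): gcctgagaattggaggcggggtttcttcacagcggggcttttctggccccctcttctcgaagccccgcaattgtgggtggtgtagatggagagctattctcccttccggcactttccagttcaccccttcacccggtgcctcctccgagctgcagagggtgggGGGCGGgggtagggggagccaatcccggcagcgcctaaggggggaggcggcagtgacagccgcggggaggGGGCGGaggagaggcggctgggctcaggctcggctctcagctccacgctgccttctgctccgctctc
Kcnh4 (chr11:100759729-100760028, minus strand): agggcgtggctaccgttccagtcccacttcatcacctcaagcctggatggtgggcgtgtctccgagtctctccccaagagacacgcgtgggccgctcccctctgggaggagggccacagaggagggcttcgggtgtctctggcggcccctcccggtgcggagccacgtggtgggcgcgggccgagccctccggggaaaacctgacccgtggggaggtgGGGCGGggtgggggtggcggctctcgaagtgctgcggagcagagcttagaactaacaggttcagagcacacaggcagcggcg
Cacna1e (chr1:154725871-154726170, minus strand): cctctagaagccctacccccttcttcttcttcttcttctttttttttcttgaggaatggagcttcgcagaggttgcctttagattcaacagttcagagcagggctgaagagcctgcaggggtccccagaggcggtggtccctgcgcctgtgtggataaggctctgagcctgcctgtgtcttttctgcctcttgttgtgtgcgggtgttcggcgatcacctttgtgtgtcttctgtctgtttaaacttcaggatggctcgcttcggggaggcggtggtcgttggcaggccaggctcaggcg
The Kcnip2 window holds 2 GC boxes and is 67.0% G or C, the Kcnh4 window holds 1 and is 68.7%, and the Cacna1e window holds 0 and is 55.3%. The RefSeq start used for Cacna1e lies inside the GENCODE span, whose upstream end on the minus strand, 154884501, is far outside the window. Whether the Cacna1e window is a promoter is therefore not known, and its composition may not be that of a promoter. Windows were found for 71 of the 99 genes, 101 in all. A GC box (GGGCGG or its reverse complement CCGCCC) was in 51.5% of these windows and in 35.7% of all 32851 windows. It was in 22 of 32 genes that fell in the averaged effect (described below by subfamily) and in 27 of 39 others. A TATA box (TATAAA or TTTATA) was in 3.96% against 13.6%, the cAMP response element TGACGTCA in 0 against 1.79%, and the shorter TGACG or CGTCA, which the full element contains, in 19.8% against 20.8%. These are counts of letters in the windows and do not show binding.

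Across the 98 genes the 2 knock-in effects, which share no library, had a Pearson correlation of 0.51 and a Spearman correlation of 0.59, given as a description since genes are not independent replicates. Of the 98, 70 were lower and 9 higher in both. The calls specific to one list were not shown to differ between the comparisons: in the interaction term, the difference of both effects, 0 of 98 genes passed (0.0% of all genes), with 15 at an unadjusted p under 0.05 (5 lower and 10 higher; 4.33% of all genes), and DESeq2 also called 0 (0.163% of all genes). The smallest p was that of Kcnf1, which encodes the silent subunit Kv5.1 that modifies Kv2 channels. It was at 90.6, 68.9 and 65.5 CPM in WT, 40.7, 40.2 and 41.7 in Q175HD, 49.2, 52.2 and 67 in SUMO-KO and 59.9, 50.1 and 59.9 in Q175HD_SUMO-KO. The fall with the knock-in was -0.88 (SE 0.14, edgeR adjusted p = 0.00383) with SUMO-1, and the change was 0.011 (SE 0.14) without it, and the interaction was 0.89 (SE 0.19, edgeR adjusted p = 0.548). Kcnt2 (0.67, SE 0.19, edgeR adjusted p = 0.757), Kcnmb4 (0.68, SE 0.20, edgeR adjusted p = 0.79) and Cacnb3 (0.36, SE 0.12, edgeR adjusted p = 0.992) followed with positive interactions and Kcnh4 with a negative one.

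**Figure D3:**
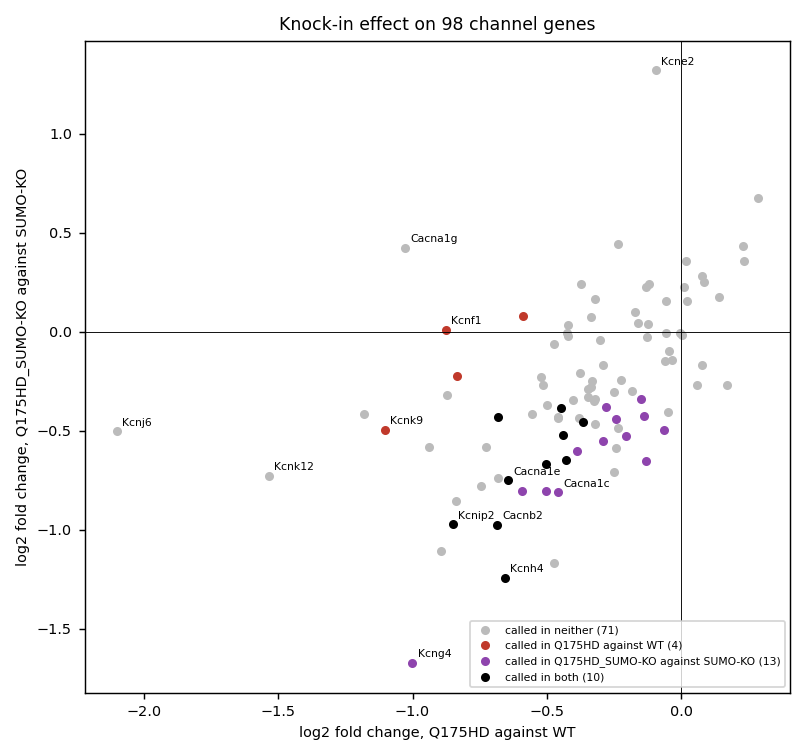
Log2 fold change of the 98 tested subunit genes in Q175HD against WT (horizontal axis) and in Q175HD_SUMO-KO against SUMO-KO (vertical axis), coloured by the comparison in which edgeR called the gene. The 10 genes called in both lie in the lower left, 4 were called in the first comparison alone and 13 in the second alone, and Kcnj6 and Cacna1g lie far from equal effects.

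The effects are given by subfamily below as the knock-in effect averaged over SUMO-1 status, for which all 12 libraries count. Among the A-type channel genes, 3 of 4 KChIP genes and 1 of 3 Kv4 genes fell. KChIP proteins are calcium-binding partners of Kv4 channels. Kcnip2 changed by -0.91 (SE 0.072, edgeR adjusted p = 4.46e-06), Kcnip3 by -0.56 (SE 0.067, edgeR adjusted p = 0.000129) and Kcnip1 by -0.65 (SE 0.14, edgeR adjusted p = 0.00744), whereas Kcnip4 was at -0.076 (SE 0.092) and did not pass. Kcnip1 spans Kcnmb1, which lies on the opposite strand within it, and the strand counted is not given in the sources used here, so that the reads of this pair may be mixed. Kcnmb1 had few reads (2 ± 0.207 CPM in WT against 14.6 ± 0.649 for Kcnip1). Of the Kv4 pore genes, Kcnd2 fell by 0.37 (SE 0.082, edgeR adjusted p = 0.00871), Kcnd3 was at -0.31 (SE 0.13) and the low Kcnd1 at -0.041 (SE 0.11). Kcnd2 was at 273, 266 and 287 CPM in SUMO-KO and 202, 154 and 216 in Q175HD_SUMO-KO, without overlap. It also lay lower in Q175HD (218, 214 and 220.0) than in WT (229, 245 and 279), a difference that did not pass (-0.21, SE 0.12, edgeR adjusted p = 0.388).

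In the Kv1 family, whose channels activate at low voltage, 3 of 6 pore genes fell: Kcna1 (-0.59, SE 0.068, edgeR adjusted p = 9.35e-05), Kcna4 (-0.39, SE 0.096, edgeR adjusted p = 0.0143), the gene of the inactivating Kv1.4, and Kcna2 (-0.33, SE 0.074, edgeR adjusted p = 0.00885). Kcna4 was at 131, 159.6 and 187 CPM in WT, 143, 137 and 155 in Q175HD, 247, 232 and 186 in SUMO-KO and 149, 124 and 150.1 in Q175HD_SUMO-KO. WT and Q175HD overlapped, and only SUMO-KO reached above 200 CPM, in SUMO-KO 1 and SUMO-KO 2. Of the Kv beta genes, cytoplasmic partners of Kv1, Kcnab1 fell (-0.50, SE 0.09, edgeR adjusted p = 0.00234) and Kcnab2 did not pass (-0.03, SE 0.096), with 369, 413 and 463 CPM of Kcnab1 in WT, 308, 292 and 353 in Q175HD, 447, 450.3 and 431 in SUMO-KO and 303, 238 and 333 in Q175HD_SUMO-KO. Of 3 Kv3 genes, 2 fell, Kcnc1 (-0.48, SE 0.074, edgeR adjusted p = 0.00075) and Kcnc4 (-0.80, SE 0.23, edgeR adjusted p = 0.0367). Among the 9 silent subunit genes, which form no channel alone, Kcng4 (-1.34, SE 0.31, edgeR adjusted p = 0.0121), Kcns3 (-1.0, edgeR adjusted p = 0.00924) and Kcnf1 (-0.43, SE 0.097, edgeR adjusted p = 0.00897) fell. The first 2 were low, Kcng4 at 8.72 ± 2.11 CPM and Kcns3 at 5.12 ± 1.59 CPM in WT.

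Of the Kv7 genes 3 of 4 fell, among them Kcnq5 at -0.54 (SE 0.078, edgeR adjusted p = 0.000515) and Kcnq3 at -0.42 (SE 0.071, edgeR adjusted p = 0.00154). Kcnq3, a subunit of the M channel, was at 329.6, 374 and 384 CPM in WT, 302, 287 and 300.4 in Q175HD, 358, 348 and 358 in SUMO-KO and 261, 207 and 258 in Q175HD_SUMO-KO, without overlap in either pair. In the EAG, ERG and ELK family 4 of 8 genes fell: Kcnh4 (-0.95, SE 0.091, edgeR adjusted p = 2.38e-05), the ERG gene Kcnh7 (-0.53, SE 0.11, edgeR adjusted p = 0.00746), the EAG gene Kcnh5 (-0.28, SE 0.075, edgeR adjusted p = 0.0225) and the ELK gene Kcnh3 (-0.24, SE 0.068, edgeR adjusted p = 0.0264). Kcnh3 had the highest level of the family and the smallest of these changes, with 138 ± 9.07 CPM in WT, 124 ± 3.17 in Q175HD, 139.9 ± 18.6 in SUMO-KO and 111 ± 4.34 in Q175HD_SUMO-KO.

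Among the 11 inward rectifier genes 3 fell. The Kir2.3 gene Kcnj4 was at 167, 162 and 196 CPM in WT, 123, 124 and 135 in Q175HD, 139, 138 and 196 in SUMO-KO and 123, 95.7 and 131 in Q175HD_SUMO-KO. The knock-in libraries were lower without overlap in both pairs, and the averaged change was -0.45 (SE 0.10, edgeR adjusted p = 0.0103). Neither comparison alone passed. Kcnj2, the gene of Kir2.1, was at 82.7 ± 20.2 CPM in WT and 80.1 ± 9.23 in Q175HD, and at 78 ± 6.72 in SUMO-KO and 72.8 ± 19.9 in Q175HD_SUMO-KO (averaged change -0.071, SE 0.14). Kcnj11, the pore of ATP-sensitive channels, fell (-0.41, SE 0.097, edgeR adjusted p = 0.0122). Of the G protein-gated subunit genes Kcnj6 fell (-1.30, SE 0.36, edgeR adjusted p = 0.0331) and was highest in WT 1, where the cortical markers were highest, while Kcnj3 (-0.065, SE 0.12) and Kcnj9 (-0.13, SE 0.078) did not pass. The vascular Kcnj8 was at 0.061 (SE 0.19) and the glial Kcnj16 at -0.0059 (SE 0.13), neither called.

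Two-pore-domain channels carry the background leak current, and 5 of 10 of their genes fell: Kcnk12 (-1.13, SE 0.30, edgeR adjusted p = 0.0213), Kcnk9 (-0.80, SE 0.19, edgeR adjusted p = 0.0117), Kcnk13 (-0.76, SE 0.17, edgeR adjusted p = 0.00825), Kcnk2 (-0.48, SE 0.12, edgeR adjusted p = 0.016) and Kcnk1 (-0.39, SE 0.12, edgeR adjusted p = 0.0357). Kcnk2, the gene of the mechanosensitive TREK-1, was at 115, 109.9 and 142 CPM in WT, 83.8, 75 and 91.2 in Q175HD, 102, 102 and 122 in SUMO-KO and 86, 57.9 and 99.8 in Q175HD_SUMO-KO. Both pairs were free of overlap, narrowly so without SUMO-1. Kcnk12 was low, with 12 to 69 reads per library, and its call was not kept in every fit that left out a library. Of the calcium-activated channel genes, Kcnma1 (-0.42, SE 0.067, edgeR adjusted p = 0.00109) and the small-conductance genes Kcnn3 (-0.28, SE 0.068, edgeR adjusted p = 0.0129) and Kcnn2 (-0.40, SE 0.10, edgeR adjusted p = 0.0192) fell, and the neuronal BK beta subunit gene Kcnmb4 did not pass (0.10, SE 0.10). Of the sodium-activated channel genes Kcnt1 fell (-0.42, SE 0.12, edgeR adjusted p = 0.032), and Kcnt2, called in Q175HD against WT (-0.59, SE 0.13, edgeR adjusted p = 0.0269), did not pass in the average (-0.26, SE 0.095). The 2 tested KCNE genes did not pass. Kcne2, which choroid plexus expresses, was at 16.5, 8.54 and 0.298 CPM in WT, 21.8, 1.28 and 0.465 in Q175HD, 0.526, 9.87 and 0.143 in SUMO-KO and 16.1, 0.0842 and 9.38 in Q175HD_SUMO-KO. It was high in the libraries where the choroid plexus markers were high and near 0 in those where they were low, in every genotype.

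**Figure D4:**
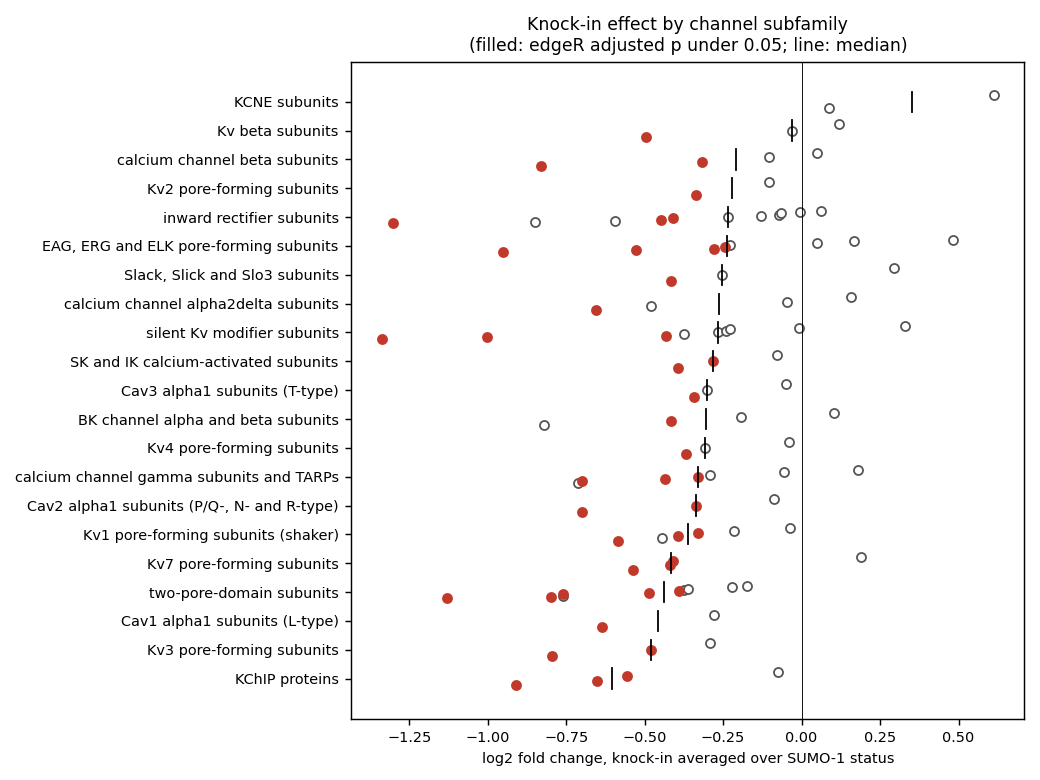
Averaged knock-in effect on the log2 scale (horizontal axis) for the 98 tested genes, grouped by subfamily and ordered by the median of the subfamily (filled: edgeR adjusted p under 0.05; open: not called; vertical line: median). The filled points all lie below 0, and the KChIP genes have the lowest median, -0.60, while the KCNE genes have the highest.

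In the calcium channel genes 10 of 23 tested fell, 4 of 8 alpha1 genes and 6 of 15 auxiliary genes. The L-type gene Cacna1c, whose channels signal to the nucleus, was at 194, 193 and 208 CPM in WT, 140.4, 149 and 144 in Q175HD, 274, 230.0 and 185 in SUMO-KO and 137, 145 and 111 in Q175HD_SUMO-KO. The knock-in libraries lay lower without overlap in both pairs, with an averaged change of -0.63 (SE 0.092, edgeR adjusted p = 0.000504). The other L-type gene of the striatum, Cacna1d, was at -0.28 (SE 0.18) and did not pass. Of the Cav2 genes, whose channels trigger transmitter release, Cacna1e (-0.70, SE 0.10, edgeR adjusted p = 0.000545) and the P/Q-type gene Cacna1a (-0.34, SE 0.079, edgeR adjusted p = 0.0114) fell, and the N-type gene Cacna1b was at -0.088 (SE 0.12). Of the T-type genes, which open near rest, Cacna1i fell (-0.34, SE 0.086, edgeR adjusted p = 0.0161), and Cacna1h (-0.05, SE 0.094) and Cacna1g (-0.30, SE 0.24) did not pass.

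Of the calcium channel beta genes 2 of 4 fell. Cacnb2 changed by -0.83 (SE 0.061, edgeR adjusted p = 2.43e-06) and Cacnb1 by -0.32 (SE 0.095, edgeR adjusted p = 0.0354), while Cacnb4 (-0.10, SE 0.055) and Cacnb3 (0.048, SE 0.06), which have the higher levels, did not pass. Cacnb4 was at 346, 357 and 364 CPM in WT, 355, 325 and 344 in Q175HD, 354, 358 and 361 in SUMO-KO and 325, 311 and 335 in Q175HD_SUMO-KO, with overlap between WT and Q175HD and none between SUMO-KO and Q175HD_SUMO-KO. Of the alpha2delta genes Cacna2d3 fell (-0.66, SE 0.10, edgeR adjusted p = 0.000724), going from 252, 318 and 337 CPM in WT to 211, 193 and 235 in Q175HD and from 451, 415 and 310.0 in SUMO-KO to 232, 226 and 214 in Q175HD_SUMO-KO. Cacna2d1, the gabapentin-binding subunit, was at 0.16 (SE 0.058) and Cacna2d2 at -0.045 (SE 0.076), neither called. Of the gamma genes 3 of 7 fell, all of them genes of AMPA receptor auxiliary subunits: Cacng4 (-0.70, SE 0.13, edgeR adjusted p = 0.00252), Cacng2 (-0.43, SE 0.13, edgeR adjusted p = 0.0335), the stargazin gene, and Cacng3 (-0.33, SE 0.11, edgeR adjusted p = 0.0475). Cacng7 was at 0.18 (SE 0.078) and Cacng8 at -0.057 (SE 0.11).

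The calls of Q175HD against WT depended on single libraries. There were 14 in the fit of all libraries, 5 without WT 1, 5 without WT 2, 13 without WT 3, 4 without Q175HD 1, 8 without Q175HD 2 and 4 without Q175HD 3, and Cacnb2, Kcnf1, Kcnip2 and Kcnip3 passed in each of these 6 fits. The share of all genes called lower moved too, from 2.82% to between 0.836% and 2.39% in these fits, while the median log2 fold change of the channel genes was -0.38 to -0.28. In Q175HD_SUMO-KO against SUMO-KO 16 of 23 passed in each of its 6 fits, and in the averaged effect 31 of 43 passed in each of 12. Since all Q175HD libraries were male, sex was added to the fit, and 13 of the 14, 23 of the 23 and 42 of the 43 calls were kept.

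The level of cortical markers moved with part of the first comparison. These markers did not overlap between WT and Q175HD, so the markers and the genotype cannot be told apart in that comparison. With the mean of the 13 markers in the fit, 3 genes passed in Q175HD against WT, namely Kcnk2, Kcnip2 and Kcnab1, and only Kcnip2 was among the 14. Of all genes 0.405% were then called lower and 0.0955% higher, against 2.82% and 1.11% without the markers. Without WT 1 and WT 2, which leaves 1 WT library whose spread is taken from the other groups, Cacnb2 and Kcnip2 passed, and 0.286% of all genes were called lower. The median log2 fold change of the 98 genes was -0.19 with the markers in the fit and -0.33 without these 2 libraries, against -0.33 in all. In Q175HD_SUMO-KO against SUMO-KO, whose marker levels overlapped, 22 of the 23 calls were kept with the markers in the fit (all but Kcng4) and the median was -0.33. That fit called 26 channel genes lower, and 5.34% of all genes lower and 4.74% higher, against 4.61% and 3.19% without the markers. Of the 43 calls of the averaged effect 20 were kept with the markers and 21 without WT 1 and WT 2, where 4.08% and 3.92% of all genes were called lower, against 8.83%.

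The fold changes of individual genes moved to different degrees with the markers in the fit, under the limit given above for Q175HD against WT. Kcnj6 was at 33, 19.9 and 10.7 CPM in WT, 4.35, 6.46 and 3.99 in Q175HD, 17, 11.8 and 9.1 in SUMO-KO and 6.19, 16 and 4.63 in Q175HD_SUMO-KO. Its log2 fold change in Q175HD against WT was -2.10, which went to 0.12 with the markers in the fit and -1.11 without WT 1 and WT 2. Cacna1g was at 52.8, 28.1 and 26.5 CPM in WT and 17.8, 18.9 and 15.9 in Q175HD, and its fold change went from -1.03 to 0.29 and -0.59. The corresponding values were, in the same order, those of Kcnc4 (-1.18, 0.11 and -0.70), Kcnk9 (-1.10, -0.19 and -0.81) and Kcnh7 (-0.83, -0.09 and -0.37). Kcnj4 went the other way, from -0.46 to -0.82 and -0.62. The part of cortical tissue in these differences was not tested. The projection neuron markers moved with the knock-in too, 10 of 17 falling with SUMO-1 and 14 of 17 without it, and their part was not tested either. The summed level of 8 interneuron markers, among whose cells are the fast-spiking ones that use Kv3 channels, was 257 to 316 CPM in WT and 232 to 296 in SUMO-KO, against 214 to 229.8 in Q175HD and 202 to 209.5 in Q175HD_SUMO-KO. Of these markers 1 fell with SUMO-1 and 0 without it, and their part was not tested.

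**Figure D5:**
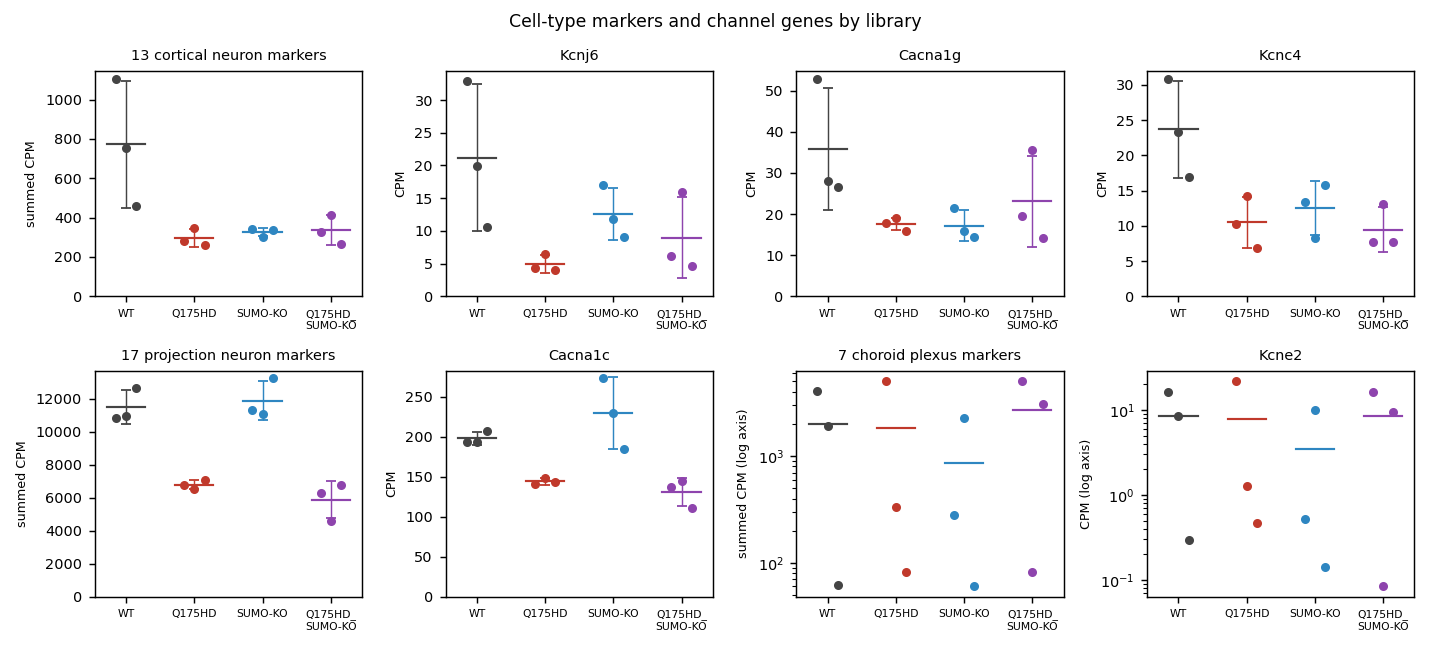
Summed CPM of marker lists and CPM of channel genes by genotype (points: 3 libraries each; horizontal line: mean; bar on linear axes: SD; the 2 panels of choroid plexus markers and Kcne2 have log axes). Kcnj6, Cacna1g and Kcnc4 are highest in WT 1, where the cortical markers are highest, Cacna1c separates by knock-in status as the projection neuron markers do, and Kcne2 is high and low with the choroid plexus markers.

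Loss of SUMO-1 gave no call. In SUMO-KO against WT 0 of 98 genes passed by edgeR (0.045% of all genes), with 26 at an unadjusted p under 0.05, 19 lower and 7 higher (13.5% of all genes). DESeq2 called 6 falls and 0 rises, against 1.44% of all genes (1.02% lower and 0.421% higher). In Q175HD_SUMO-KO against Q175HD 0 passed (0.0337%), with 12 at an unadjusted p under 0.05, 10 lower and 2 higher (5.28% of all genes), and 0 by DESeq2 (0.107%). In the effect averaged over Htt status 0 passed (0.0787%, of which 0.0562% higher), with 26 at an unadjusted p under 0.05, 23 lower and 3 higher (15.7% of all genes), and 6 falls by DESeq2 (1.3% of all genes). The median log2 fold changes were -0.15, -0.099 and -0.10, against 0.025, 0.036 and 0.028 for all genes. The genes with the smallest p in SUMO-KO against WT were Cacnb3 (-0.44, SE 0.086, edgeR adjusted p = 0.0801), Kcnmb4 (-0.67, SE 0.14, edgeR adjusted p = 0.111), the G protein-gated Kcnj9 (-0.48, SE 0.11, edgeR adjusted p = 0.144), Kcnn3 (0.36, SE 0.096, edgeR adjusted p = 0.19) and Kcnip3 (-0.35, SE 0.094, edgeR adjusted p = 0.191). Cacnb3 was at 124, 109 and 114 CPM in WT, 97.5, 107 and 112 in Q175HD, 86.2, 78.5 and 90.3 in SUMO-KO and 101, 96.8 and 101 in Q175HD_SUMO-KO. SUMO-KO lay below every other group without overlap. Kcnmb4 had the same order, with 25.2, 24.9 and 21.8 CPM in WT, 19.6, 19.5 and 21.8 in Q175HD, 15.6, 11.4 and 17.9 in SUMO-KO and 18.8, 20.9 and 21.6 in Q175HD_SUMO-KO. In the knock-in the smallest p values were those of Kcnf1 (0.47, SE 0.14, edgeR adjusted p = 0.87) and Kcnc1 (-0.35, SE 0.10, edgeR adjusted p = 0.871).

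The absence of calls with SUMO-1 loss rested on single libraries. Without SUMO-KO 3 there were 17 calls in SUMO-KO against WT, 14 falls and 3 rises (Kcnh4, Cacna2d3 and Kcna4), and 16 in the averaged effect, 15 falls and the rise of Cacna2d3. Calls over all genes grew as well, to 3.52% lower and 4.3% higher in SUMO-KO against WT and to 2.94% lower and 3.47% higher in the averaged effect. Without WT 3 there were 4 calls in SUMO-KO against WT (0.754% of all genes), and without any of the other 4 libraries of that comparison there were 0. In Cacna2d3 the SUMO-KO libraries were at 451, 415 and 310.0 CPM, of which the last lay within the WT range. By groups that did not overlap, SUMO-KO was below WT for 14 genes (6.54% of all genes) and above it for 3, Cacnb2, Kcng3 and Kcnn3 (7.59%). Q175HD_SUMO-KO was below Q175HD for 20 genes (6.65%) and above it for 4, Kcna3, Kcnf1, Kcnj14 and Kcnt2 (6.35%).

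Knock-in and SUMO-1 loss together, Q175HD_SUMO-KO against WT, gave 31 falls and 0 rises (8.44% of all genes called, 5.07% lower and 3.37% higher), and 54 genes had an unadjusted p under 0.05, 53 lower and 1 higher (24.4% of all genes). There were 18 calls without WT 1 and 17 without Q175HD_SUMO-KO 1, where 2.75% and 2.45% of all genes were called lower. This comparison shares the WT and Q175HD_SUMO-KO libraries with the others and is given beside them only. Kcnip2 was at -0.91 (SE 0.10, edgeR adjusted p = 0.000212), Kcnh4 at -0.91 (SE 0.13, edgeR adjusted p = 0.00107) and Cacnb2 at -0.73 (SE 0.086, edgeR adjusted p = 0.00031). The largest change among them was that of Kcng4 (-2.33, SE 0.46, edgeR adjusted p = 0.00929).

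The calls of the averaged knock-in effect fell mostly on abundant genes. In order of mean TPM, 21 of the first 25 genes fell, 11 of the next 25, 7 of the next 25 and 4 of the last 23 tested, while the median log2 fold changes of these 4 groups were -0.39, -0.27, -0.26 and -0.37. Among all genes tested in the same 4 ranges of mean TPM, 15.2%, 10.7%, 7.82% and 6.32% were called lower. With more reads a change of the same size passes more readily. The 41 called genes with a mean of at least 50 reads had a median span of 98.2 kb and the 40 others above that minimum one of 38.8 kb. The medians of their mean counts were 1535 and 457 reads, so spans were not compared at equal depth. Several of the genes are neighbours on a chromosome. Kcna1, Kcna6 and Kcna5 lie in 1 cluster on chromosome 6, with averaged changes of -0.59, -0.22 and -0.45, of which the first passed. Cacng4 and Cacng5 on chromosome 11 were at -0.70 and -0.29, and Cacna1d and Cacna2d3, 318 kb apart on chromosome 14, at -0.28 and -0.66. Other neighbours differed or hardly moved. Kcna2 and Kcna3 on chromosome 3 were at -0.33 and -0.037, and Cacng7 and Cacng8 on chromosome 7 at 0.18 and -0.057. Kcnj16 and Kcnj2 on chromosome 11 were at -0.0059 and -0.071.

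Partner genes of the channels moved with them in part. Of 17 calcium pumps, exchangers and buffers, 7 fell and 0 rose in Q175HD against WT, 7 and 0 in Q175HD_SUMO-KO against SUMO-KO, and 8 and 0 in the averaged effect, beside the shares of all genes given above. The 7 genes were not all the same. Ncald and Slc8a1 were called in Q175HD against WT, and neither without SUMO-1 nor in the average. Their mean CPM were 228 and 104 in WT, 87.2 and 48.4 in Q175HD, 85.6 and 61.2 in SUMO-KO, and 101 and 60.6 in Q175HD_SUMO-KO. The potassium-dependent sodium-calcium exchanger gene Slc24a4 changed by -1.13 (SE 0.062, edgeR adjusted p = 2.25e-07) in the average, from 88.8 to 46.1 CPM with SUMO-1 and from 92.9 to 37.1 without it. The plasma membrane calcium pump gene Atp2b1 changed by -0.81 (SE 0.079, edgeR adjusted p = 2.65e-05), the neuronal calcium sensor gene Hpca by -0.58 (SE 0.11, edgeR adjusted p = 0.00241) and the exchanger gene Slc8a2 by -0.56 (SE 0.088, edgeR adjusted p = 0.000944). Of 20 tested regulators and scaffolds of calcium channels, 2, 4 and 9 fell and 0 rose in the same comparisons. The calcineurin gene Ppp3ca changed by -0.62 (SE 0.10, edgeR adjusted p = 0.00144), the presynaptic scaffold gene Rims1 by -0.46 (SE 0.074, edgeR adjusted p = 0.00108) and the kinase gene Camk2b by -0.44 (SE 0.089, edgeR adjusted p = 0.00481). Of 15 tested partners and scaffolds of potassium channels, 0, 3 and 5 fell, among them Ank3 (-0.36, SE 0.068, edgeR adjusted p = 0.00306), which anchors Kv7 channels at the axon initial segment, and Dlg2 (-0.35, SE 0.062, edgeR adjusted p = 0.00232), and Lgi1 rose in the average (0.21, SE 0.062, edgeR adjusted p = 0.0327). Of 9 tested HCN and NALCN channel genes, 1, 1 and 2 fell, the NALCN partner Unc79 (-0.45, SE 0.086, edgeR adjusted p = 0.00353) and the HCN partner Pex5l (-0.39, SE 0.095, edgeR adjusted p = 0.0132) in the average, and Hcn3 rose (0.46, SE 0.13, edgeR adjusted p = 0.0261). In SUMO-KO against WT none of these 4 lists had a call by edgeR.

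In the authors' deposited tables, which hold DESeq2 results, 24 of the subunit genes were lower and 0 higher at an adjusted p under 0.05 in Q175HD against WT, 29 and 0 in Q175HD_SUMO-KO against SUMO-KO, and 42 and 0 in Q175HD_SUMO-KO against WT. The same authors' deposited tables list 6 lower and 0 higher in SUMO-KO against WT and 0 in Q175HD_SUMO-KO against Q175HD. All 14, 23 and 31 genes called here in the first 3 of these comparisons were also called in the authors' deposited tables.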

How the data were processed

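Striatal total RNA of 4 genotypes was measured in 12 libraries, 3 per genotype. Per the labels, the libraries were directional (NEBNext Ultra II) and freed of ribosomal RNA. Among the tools in the submitters' processing notes are STAR 2.5.2a, Bowtie 1.1.2, cutadapt 2.10 and DESeq2, with mm10 and GRCm38 as builds. Neither the counting tool nor the strand counted was found there.

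The deposited read counts are whole numbers per gene and library without normalization, per the file headers and values. The deposited TPM values, made by the authors, were used for levels between genes. The authors' log2 fold changes and adjusted p-values are DESeq2 output, per the file headers, and were used for comparison only. The table held 0 columns of other series.

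The test was edgeR 4.0.16 under R 4.3.3, on the 17796 genes that filterByExpr passed at a minimum count of 10 and a minimum total of 15. Libraries were scaled by TMM, and a quasi-likelihood model with 4 group means and robust dispersion was fitted to all 12 libraries. Calls needed an adjusted p (Benjamini-Hochberg, over all genes tested) under 0.05. The SE is the log2 fold change divided by the square root of F, and CPM use TMM-scaled library sizes. The fitting procedure was tested on simulated data. Replicates of a genotype differed by a chi-square of 9.26 to 30.4 per degree of freedom, so no column of counts was a copy of another of its genotype. This does not tell whether the libraries came from separate animals. Genes were placed with GENCODE M21 on GRCm38, which held all 99, and the windows at gene starts came from RefSeq.

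Other settings were median-ratio size factors, no filter, a mean count of at least 50, DESeq2 1.42.0, only the libraries compared, the replicate number as a block, leaving out each library, sex, cortical and choroid plexus markers as covariates, and leaving out WT 1 and WT 2. The genes, lists and settings were chosen with earlier results of these data known. Named were called genes with a mean count of at least 50, the most abundant gene of a subfamily, the 5 smallest p where fewer than 3 genes were called, a list of striatal channel genes, and up to 4 called partners per list. Kcnk12, Kcns3, Kcnd1, Kcnmb1, Kcna3, Kcna6, Kcnj14, Kcnu1, Kcng3, Ncald, Slc8a1, and the genes called under single settings, were chosen after their values were seen. Results for some genes are not reported here.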

Additional observations from a re-analysis of the deposited data

How the results depend on the processing

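Counts of called genes among the 98 kept within 1.5 times of the reported number under the settings not named here. In Q175HD against WT (14 calls) there were 25 with DESeq2, 32 with only the libraries compared, 3 with cortical markers as a covariate, 2 without WT 1 and WT 2, and 23 and 4 at an adjusted p under 0.1 and 0.01. In Q175HD_SUMO-KO against SUMO-KO (23) there were 8 with only the libraries compared and 10 at 0.01. In Q175HD_SUMO-KO against WT (31) there were 11 with cortical markers, 8 without WT 1 and WT 2 and 14 at 0.01. The averaged knock-in effect (43) had 21 with cortical markers, 21 without WT 1 and WT 2 and 22 at 0.01. In SUMO-KO against WT (0) there were 6 with DESeq2, 4 with no filter and 1 at 0.1, and in the averaged SUMO-1 effect (0) there were 6 with DESeq2 and 2 with no filter. Calls over all genes moved with the setting as well. In Q175HD against WT 3.93% of all genes were called in the reported fit and 6.12% with DESeq2. The share was 7.67% with only the libraries compared and 0.5% with cortical markers. Counts without a share of all genes, here or in the text above, do not tell whether the channel genes alone moved. The causes were not tested. Leaving out each library of the groups compared gave 4 to 13 calls in Q175HD against WT, 17 to 25 in Q175HD_SUMO-KO against SUMO-KO, 17 to 27 in Q175HD_SUMO-KO against WT, 31 to 43 in the averaged knock-in effect, 0 to 17 in SUMO-KO against WT, 0 to 16 in the averaged SUMO-1 effect, and 0 to 0 in Q175HD_SUMO-KO against Q175HD and in the interaction. Leaving out a library of the other groups, which share the estimate of spread, gave up to 21 calls in Q175HD against WT (without SUMO-KO 3 or Q175HD_SUMO-KO 2) and up to 41 in Q175HD_SUMO-KO against WT (without SUMO-KO 3). Of all genes 5.25% were called in Q175HD against WT without SUMO-KO 3 and 4.68% without Q175HD_SUMO-KO 2.

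No channel gene called in the 4 comparisons with calls changed direction under the settings run. Over genes and settings the call was kept 223 times and lost 85 times in Q175HD against WT, 427 and 79 in Q175HD_SUMO-KO against SUMO-KO, 559 and 122 in Q175HD_SUMO-KO against WT, and 773 and 128 in the averaged knock-in effect. Replicate numbers share no stated animal, litter or batch. The correlation of same-numbered deviations ran from -0.23 to 0.57, over 0.1 in 11 of 18 pairs. These values do not settle whether the numbers pair the samples, and the reported fit did not pair them. With the replicate block there were 20 calls in Q175HD against WT (4.44% of all genes), 27 in Q175HD_SUMO-KO against SUMO-KO, 35 in Q175HD_SUMO-KO against WT, 46 in the averaged knock-in effect (45 falls and 1 rise) and 0 in the interaction and with SUMO-1 loss. For the other counts with this block no share of all genes is given, so they cannot be set beside it. Depth limits the 17 tested genes with a mean under 50 reads, for which small changes are not detectable.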
